A study of Rattus norvegicus with 9 samples.

Results

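The nuclear-encoded subunits of the mitochondrial respiratory chain and ATP synthase were examined in RNA sequencing of rat knee cartilage. The members were the protein-coding entries outside the mitochondrial genome whose names begin with Nduf, Uqcr, Cox4, Cox5, Cox6, Cox7, Cox8 or Atp5, together with Sdha, Sdhb, Sdhc and Sdhd. There were 102 of these among 32043 genes in the table, and 3 names stood on a second entry, so the members carry 99 names. By complex they were 45 entries of complex I, 7 Ndufaf assembly factors of complex I, 4 of complex II, 8 of complex III, 19 of complex IV (with Ndufa4 and Ndufa4l2) and 19 of complex V. All rats were male Sprague-Dawley animals, 8 weeks old when obtained. The control group had its knee joint capsule opened and sutured only. The model group had knee osteoarthritis (KOA) induced by the modified Hulth method, a surgical destabilisation of the knee, with exercise imposed afterwards. The SYD group had the same surgery and then received Shengyu decoction (SYD), a herbal extract, by gavage for 4 weeks, at the highest of the study's oral doses. Tissue was taken 8 weeks after surgery. Each group had 3 libraries, and every mean below is given with its SD over n = 3 libraries. Nothing in the labels says that the libraries of a group came from separate animals, so the p-values measure the spread between these libraries.

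The labels name the tissue as cartilage, while their description of the RNA extraction speaks of retina. Among the 9 chondrocyte markers, Col2a1, the main collagen of cartilage and the most abundant of them, was above 0 in all 9 libraries, from 39.0 to 8323 FPKM. Others fell lower, as Acan ranged from 0.629 to 305 FPKM and Col9a1 from 0.604 to 393 FPKM. Cnmd was at 0 in model library 2, and Matn3 in model libraries 1 and 3 and SYD library 3. The summed FPKM of the 9 markers was 10438, 424 and 5443 in control libraries 1, 2 and 3, 747, 135 and 147 in model and 1138, 767 and 92.8 in SYD. Erythroid markers summed to between 296 and 42470 FPKM and skeletal muscle markers to between 21.6 and 1261 FPKM over the 9 libraries, so the tissue was mixed. In such bulk samples, fewer cells of a type and less RNA per cell cannot be told apart.

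In the inner mitochondrial membrane, complex I (NADH dehydrogenase) and complex II (succinate dehydrogenase) pass electrons by way of ubiquinone to complex III, cytochrome c carries them to complex IV (cytochrome c oxidase), and complex V (ATP synthase) uses the proton gradient built on the way to make ATP. Complexes I, III, IV and V join subunits encoded in the nucleus with a few encoded in mitochondrial DNA, whereas complex II is encoded in the nucleus alone. Articular chondrocytes live with little oxygen and are known to draw much of their ATP from glycolysis.

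Many genes of this family share promoter motifs for NRF1, for ETS factors such as GABP, for YY1 and for ERR. RefSeq promoter windows of assembly GRCr8, from 250 bases before to 50 bases after the start of each gene, were found for 77 of the 99 names. The NRF1 letters GCGCATGCG, whose length was set after matches had been seen, stood in 8 of these 77 windows (10.4%), against 1.52% of all 33469 windows. The ETS letters CCGGAAG stood in 21 (27.3%, against 8.75%), the YY1 letters AAGATGGC in 14 (18.2%, against 3.17%) and the ERR letters TCAAGGTCA in 2 (2.60%, against 0.433%), each read on both strands. The last letters of the ETS motif are the first of the YY1 motif, but no member window held them joined. The GC letters GGGCGG, a common SP motif, stood in 35 (45.5%, against 33.1%), and the median GC content was 56.3% against 51.7%. Of the 77 windows, 36 (46.8%) held at least 1 of the NRF1, ETS, YY1 and ERR motifs. The windows of 4 members are shown, chosen after their values were seen, because their levels separated the model from the control libraries and each window holds a motif. Capitals mark these motifs in the windows of Atp5f1a (chr18:73567287-73567586, plus strand, ETS), Atp5me (chr14:1464610-1464909, plus strand, YY1, NRF1 and ETS in that order), Uqcrc1 (chr8:118467973-118468272, plus strand, NRF1 and YY1) and Sdhd (chr8:59850592-59850891, minus strand, ETS at 2 places and ERR), written 5′ to 3′. A match of letters is a description and not a binding site.
Atp5f1a: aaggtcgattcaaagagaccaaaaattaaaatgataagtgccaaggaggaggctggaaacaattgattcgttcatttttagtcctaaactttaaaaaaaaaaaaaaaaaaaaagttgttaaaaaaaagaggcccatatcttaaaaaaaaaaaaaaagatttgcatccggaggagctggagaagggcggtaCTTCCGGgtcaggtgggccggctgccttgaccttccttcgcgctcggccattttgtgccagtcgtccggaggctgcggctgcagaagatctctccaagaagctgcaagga
Atp5me: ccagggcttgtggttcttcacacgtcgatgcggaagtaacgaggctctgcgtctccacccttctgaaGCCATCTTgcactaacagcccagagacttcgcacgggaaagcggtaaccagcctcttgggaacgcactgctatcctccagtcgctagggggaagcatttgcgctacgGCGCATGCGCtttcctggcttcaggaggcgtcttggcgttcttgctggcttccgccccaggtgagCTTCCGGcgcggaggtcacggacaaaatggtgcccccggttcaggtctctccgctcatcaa
Uqcrc1: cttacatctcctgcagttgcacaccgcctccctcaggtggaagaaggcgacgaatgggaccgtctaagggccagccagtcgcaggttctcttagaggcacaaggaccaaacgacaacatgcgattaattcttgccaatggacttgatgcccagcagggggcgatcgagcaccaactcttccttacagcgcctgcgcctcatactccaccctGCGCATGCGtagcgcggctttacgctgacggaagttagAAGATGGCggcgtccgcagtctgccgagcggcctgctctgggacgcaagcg
Sdhd: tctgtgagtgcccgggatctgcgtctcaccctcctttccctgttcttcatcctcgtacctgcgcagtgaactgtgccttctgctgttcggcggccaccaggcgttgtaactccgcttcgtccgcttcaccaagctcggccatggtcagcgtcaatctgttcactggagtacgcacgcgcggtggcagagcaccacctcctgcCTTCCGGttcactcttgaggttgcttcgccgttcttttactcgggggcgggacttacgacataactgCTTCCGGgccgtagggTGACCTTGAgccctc

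The depth of the libraries, recovered from the FPKM values, was 14914121 to 19510537 reads. The share of reads on mitochondrially encoded genes was 4.07%, 4.86% and 4.05% in control, 90.7%, 39.5% and 81.3% in model and 23.7%, 34.7% and 72.7% in SYD. The reads left for other genes therefore ranged from 1744769 in model library 1 to 17373645 in control library 3. The 102 members together received 92243, 136598 and 123824 reads in control, 11769, 77238 and 29505 in model and 71408, 87918 and 40502 in SYD.

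As a share of the reads outside the mitochondrial genome, the members held overlapping shares in every group. They took 0.645%, 0.848% and 0.713% of these reads in control. They took 0.675%, 0.695% and 0.817% in model and 0.580%, 0.690% and 0.786% in SYD. The 3 ranges overlap throughout. Within the members' summed FPKM, complex I held 21.8%, 21.9% and 21.2% in control, 19.6%, 20.1% and 20.4% in model and 21.9%, 21.8% and 21.1% in SYD. All 3 model libraries were below the 6 others, while the shares of the other complexes overlapped between model and control. Complex V held 40.4% to 46.4%, complex IV 19.1% to 24.7%, complex III 8.25% to 10.8% and complex II 1.93% to 5.51% over the 9 libraries.

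Against the 13 subunits encoded in mitochondrial DNA, the balance differed widely. The ratio of the summed FPKM of these 13 genes to that of the nuclear members was 7.40, 6.76 and 6.52 in control. It was 1440, 94.0 and 464 in model and 56.0, 79.0 and 321 in SYD. All 6 model and SYD libraries stood above the 3 control libraries, and the model and SYD libraries overlapped. Within complex IV, which has 3 mitochondrially encoded subunits, the ratio was 12.7 to 14.6 in control and 109 to 3515 in the others. Within complex V it was 3.01 to 3.38 and 29.2 to 667. The share of all reads on mitochondrially encoded genes, given above, differed in the same way and includes the reads of these 13 genes. The ratio and the share are therefore not separate results, and the part of the share in this ratio was not tested.

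**Figure D1:**
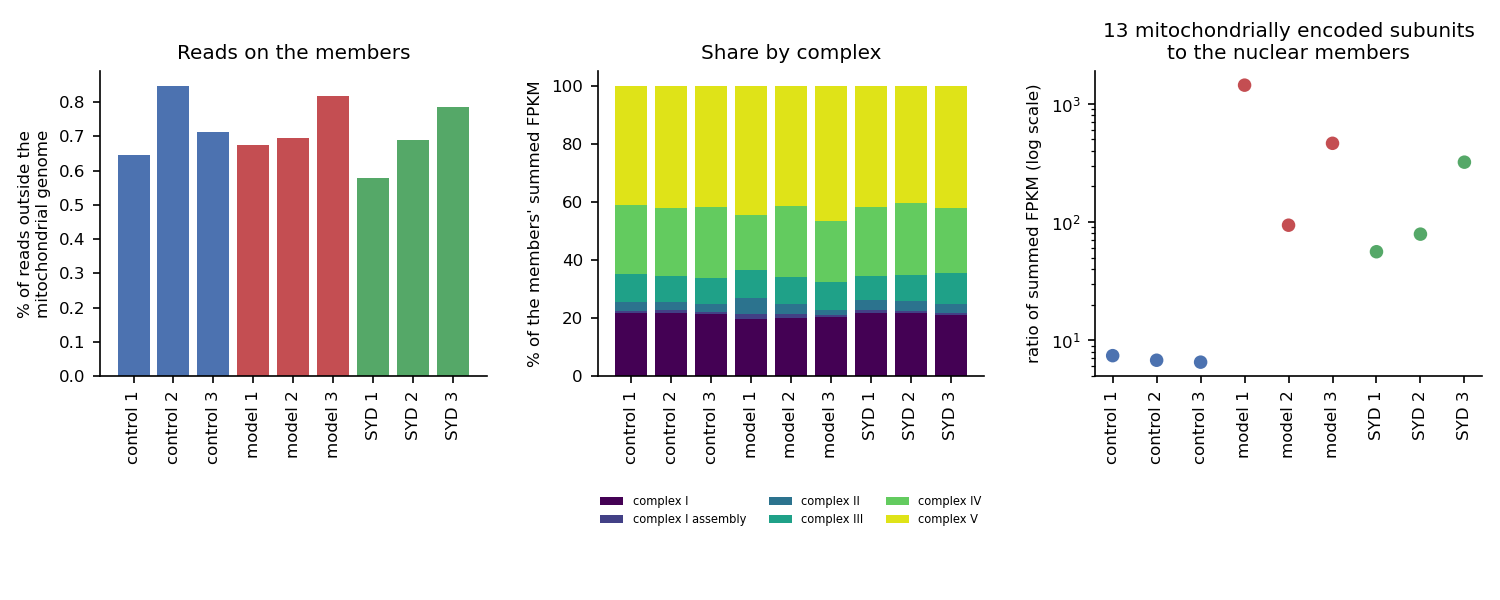
Bars on the left give the percentage of reads outside the mitochondrial genome that fell on the 102 members in each library, stacked bars in the middle give each complex as a percentage of the members' summed FPKM, and points on the right give the ratio of the summed FPKM of the 13 mitochondrially encoded subunits to that of the members on a log axis. The groups overlap in the left panel, the share of complex I in the middle panel is 19.6% to 20.4% in model and 21.1% to 21.9% in the other libraries, and the ratio on the right is 6.52 to 7.40 in control and 56.0 or more in the 6 others.

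Fold changes were taken on the log2(FPKM + 1) scale and tested with limma over the 13898 genes whose mean reached 0.5 FPKM. A gene was called when its unadjusted p was under 0.05 and its fold change over 1 on the log2 scale in either direction. Of the 102 members, 88 entered the fit, and the 14 others were 9 entries at 0 in every library and 5 with a lower mean. The 2 members nearest to that limit from below were Ndufa3 (mean 0.433 FPKM) and the Cox6b1 entry on chromosome 2 (0.310), and those nearest from above were the 309 bp Atp5mk-ps2 entry (0.799) and Ndufaf7 (0.995). Of the 88, 87 had a mean of at least 0.5 FPKM in every group, so the filter kept almost none through 1 group only. Expression in the control group was substantial, with 63 members at 10 FPKM or more and 8 at 100 or more. The highest were Atp5f1b with 278 ± 49.2 FPKM and Atp5f1e with 199 ± 25.4 FPKM, and every control library had more Atp5f1b than any had Atp5f1e.

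The first comparison set the KOA model (destabilised joints and imposed exercise) beside sham surgery. Between the model and control groups, 5 of the 88 tested members were called (5.68%), beside 14.7% of all tested genes. The 4 raised (beside 3.55% of all tested genes) were Atp5mk-ps2, Atp5mpl-ps1, Cox6a2 and Ndufaf4, and the 1 lowered (beside 11.2%) was Atp5mk. By complex, the calls were 0 of 37 in complex I, 1 of 7 complex I assembly factors, 0 of 4 in complex II, 0 of 7 in complex III, 1 of 14 in complex IV and 3 of 19 in complex V. None had an adjusted p under 0.05 (limma), beside 2.59% of all tested genes, while 12 members had an unadjusted p under 0.05 (19.2% of all tested genes) and voom on the recovered reads called 4. Without model library 2, 8 members had an adjusted p under 0.05 (limma), beside 18.9% of all tested genes, and without any other 1 library 0 did. Groups did not overlap for 21 members (28.7% of all tested genes), of which 15 were higher in the model group (8.65% of all) and 6 lower (20% of all). The median log2 fold change was 0.08 over the members and -0.23 over all tested genes. Where the mean reached 10 FPKM, 3 of 66 members (4.55%) and 15.2% of all genes were called. The count rested on single libraries, as it was 11 without model library 1, 3 without control library 1, and 1 without either control library 2 or control library 3. With model libraries 1 and 3 both left out, 7 members were called, but the model group was then 1 library, assumed to vary like the control libraries.

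These directions hold for the deposited FPKM, whose library size was 0.193 to 2.18 times the recovered reads. When FPKM were rescaled to TPM, so that mitochondrially encoded genes count in the total, 75 of the 88 members were called and all 75 were lower in the model group. The median fold change of the members was then -2.85 and that of all tested genes -2.60 on the log2 scale. Atp5mk-ps2, Ndufaf4, Atp5mpl-ps1 and Cox6a2 turned to negative values under TPM.

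**Figure D2:**
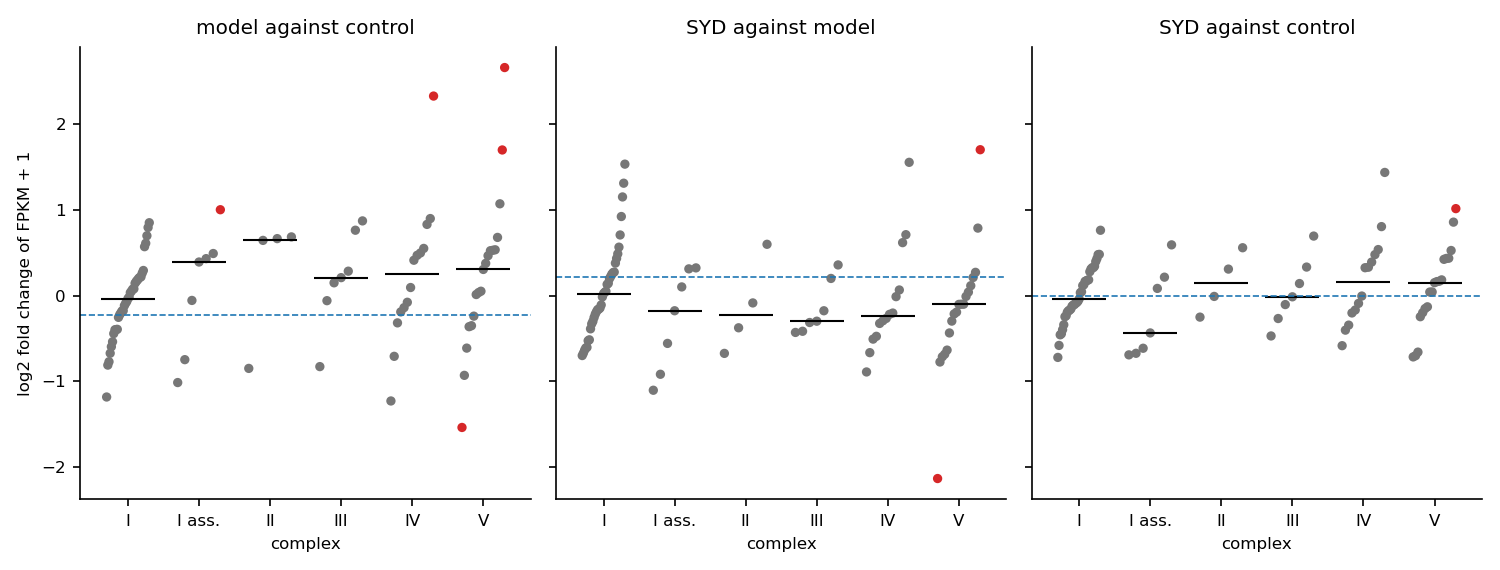
Each point is the log2 fold change of FPKM + 1 of 1 tested member, sorted within its complex (I ass., the Ndufaf assembly factors), for the 3 comparisons. Red points were called, black lines are medians per complex, and the dashed line is the median of all 13898 tested genes. Calls number 5, 2 and 1 of 88, and most points lie within 1 log2 unit of 0.

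In complex V, both large subunits of the catalytic head had their highest values in the control group. Atp5f1a, the alpha subunit (chromosome 18, 71292374 to 71300794 in the authors' table, which names no build), was at 118, 135 and 112 FPKM in control, 51.5, 70.0 and 69.9 FPKM in model and 64.6, 83.2 and 83.3 FPKM in SYD. The 3 control libraries were the highest of the 9, with no overlap. The log2 fold change was -0.93 ± 0.24 (SE) for model against control (limma, adjusted p = 0.103) and -0.66 ± 0.17 for SYD against control (limma, adjusted p = 0.0466). When 1 library was left out, the latter adjusted p stayed under 0.05 (limma) only without SYD library 3. Atp5f1b, the beta subunit that carries the catalytic sites, was at 249, 335 and 250.3 FPKM in control, 219, 135 and 195 FPKM in model and 145, 180.0 and 178 FPKM in SYD. Control libraries were again above all others, and the log2 fold changes were -0.61 ± 0.32 (limma, adjusted p = 0.359) and -0.72 ± 0.20 (limma, adjusted p = 0.0640).

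Atp5f1e, the small epsilon subunit of the central stalk of the same enzyme, had the opposite order. It was at 192, 178 and 227 FPKM in control, 230.0, 385 and 823 FPKM in model and 331, 329 and 428 FPKM in SYD. The control libraries were the lowest, although model library 1 came close to control library 3. The log2 fold change was 0.86 ± 0.21 for SYD against control (limma, adjusted p = 0.0431) and 1.07 ± 0.51 for model against control (limma, adjusted p = 0.321). When 1 library was left out, Atp5f1e kept an adjusted p under 0.05 (limma) for SYD against control only without SYD library 3. Its 159 bp entry held 915, 1044 and 1426 reads in control, 133, 1619 and 870 in model and 1398, 1487 and 784 in SYD. Within a library, where scaling plays no part, the ratio of Atp5f1e to Atp5f1a was 1.32 to 2.02 in control, 4.47 to 11.8 in model and 3.96 to 5.14 in SYD. This pair was chosen after its values were seen, and the ratio is given without a test.

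Atp5mc2, Atp5mc3, Atp5if1 and Atp5me of complex V had no call. Atp5mc2, which encodes the c subunit of the rotating ring, had 111 ± 8.07 FPKM in the control, 161 ± 63.1 in the model and 126 ± 22.7 in the SYD group, and its paralog Atp5mc3 had 43.1 ± 4.18, 37.1 ± 9.99 and 37.4 ± 2.67 FPKM. Atp5if1, the inhibitor of ATP hydrolysis by the enzyme, was scattered from 79.5 to 147 FPKM in control and from 38.5 to 225 FPKM in model. Atp5me, the e subunit of the membrane part (named after its values were seen), was at 48.6, 51.1 and 45.2 FPKM in control against 81.0, 64.2 and 90.8 FPKM in model. All model libraries were above all control libraries, with a log2 fold change of 0.68 ± 0.22 (limma, adjusted p = 0.172), and the SYD libraries at 46.2, 37.4 and 70.9 FPKM reached into both ranges.

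Atp5mk, a small membrane subunit linked to dimers of the enzyme (chromosome 1, 245973914 to 245980761), was called in both comparisons with the model group, as was its copy described next. It was at 45.7, 51.1 and 51.6 FPKM in control, 8.22, 33.9 and 15.1 FPKM in model and 34.7, 53.9 and 90.9 FPKM in SYD. The model libraries were the lowest of all, although model library 2 and SYD library 1 were close to each other. The log2 fold change was -1.54 ± 0.48 for model against control (limma, adjusted p = 0.161) and 1.70 ± 0.58 for SYD against model (limma, adjusted p = 0.723). The first was no longer called without control library 2, control library 3 or model library 3, and the second without model library 1, model library 3, SYD library 2 or SYD library 3.

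The 177 bp entry Atp5mk-ps2 (chromosome 10, 86208712 to 86208888), named as a pseudogene copy of Atp5mk, went the other way. It was at 12.2, 9.21 and 7.31 FPKM in control, 124, 28.9 and 75.6 FPKM in model and 5.74, 18.5 and 24.5 FPKM in SYD. The model libraries were above all others. Its log2 fold change of 2.67 ± 0.54 (limma, adjusted p = 0.0651) for model against control was called with each of the 6 libraries left out in turn, and that of -2.14 ± 0.70 (limma, adjusted p = 0.723) for SYD against model was no longer called without model library 1, model library 3 or SYD library 1. Reads of a gene and its near copy can be shared out differently, so both results are uncertain as levels of either entry. In model library 1, Atp5mk had 11 reads and the 177 bp copy 80, whereas in control library 1 they had 505 and 65. Summed over Atp5mk and both Atp5mk-ps2 entries, the entries had 580, 758 and 813 reads in control, 91, 482 and 126 in model and 366, 670 and 438 in SYD. Scaled by the library size behind the FPKM, these ranges were 19.3 to 20.6, 18.2 to 25.02 and 13.8 to 38.04 reads per 1e6. The scaled sums overlapped between all groups.

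Atp5mpl-ps1 (chromosome 1, 133428754 to 133429248), a copy named after a small proteolipid of the enzyme, was called in both comparisons with the control group. It was at 7.40, 10.2 and 7.63 FPKM in control, 12.8, 26.8 and 71.7 FPKM in model and 10.7, 22.5 and 23.3 FPKM in SYD. All model and SYD libraries stood above the control libraries. The log2 fold change was 1.70 ± 0.60 (limma, adjusted p = 0.198) for model against control and 1.02 ± 0.32 (limma, adjusted p = 0.0812) for SYD against control. The first was called only without model library 1 or model library 3 among the fits with a library left out, and the second only without control library 2 or SYD library 1. The second also lost its call after rescaling without mitochondrial genes and in 1 fit of all 9 libraries, and it turned to -0.44 under TPM.

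In complex III, Uqcrc1, a core subunit, was at 44.6, 56.8 and 44.2 FPKM in control, 23.3, 27.6 and 29.5 FPKM in model and 31.4, 38.6 and 33.8 FPKM in SYD. The 3 groups did not overlap at all, with SYD between the others. The log2 fold change was -0.83 ± 0.22 for model against control (limma, adjusted p = 0.112), 0.36 ± 0.24 for SYD against model (limma, adjusted p = 0.723) and -0.47 ± 0.16 for SYD against control (limma, adjusted p = 0.0922). The other core subunit, Uqcrc2, had 14.3 ± 0.661 FPKM in the control, 17.4 ± 8.27 in the model and 11.7 ± 0.905 in the SYD group, and the Rieske iron-sulfur protein Uqcrfs1 had 39.0 ± 5.38, 45.9 ± 11.9 and 35.97 ± 2.13 FPKM.

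The 4 tested small subunits of complex III differed among themselves. Uqcr10 (named, like Uqcrb, after its values were seen) was at 23.2, 26.7 and 23.8 FPKM in control, 31.3, 45.7 and 66.7 FPKM in model and 32.5, 38.2 and 52.9 FPKM in SYD. All 6 model and SYD libraries exceeded the control libraries, with log2 fold changes of 0.87 ± 0.31 (limma, adjusted p = 0.203) and 0.70 ± 0.20 (limma, adjusted p = 0.0656) against control. Uqcrh, the hinge protein that binds cytochrome c1, had 37.6 ± 5.53 FPKM in the control, 64.8 ± 11.3 in the model and 48.7 ± 14.9 in the SYD group, and only the model libraries cleared the control range. Uqcrq, the most abundant member of this complex, had 101.2 ± 6.66, 132 ± 61.2 and 111 ± 60.4 FPKM, with overlap. Uqcrb had log2 fold changes of -0.06 ± 0.55 for model and 0.14 ± 0.22 for SYD against control, also with overlap. The ratio of Uqcr10 to Uqcrc1 within a library was 0.471 to 0.538 in control, 1.34 to 2.26 in model and 0.988 to 1.57 in SYD.

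**Figure D3:**
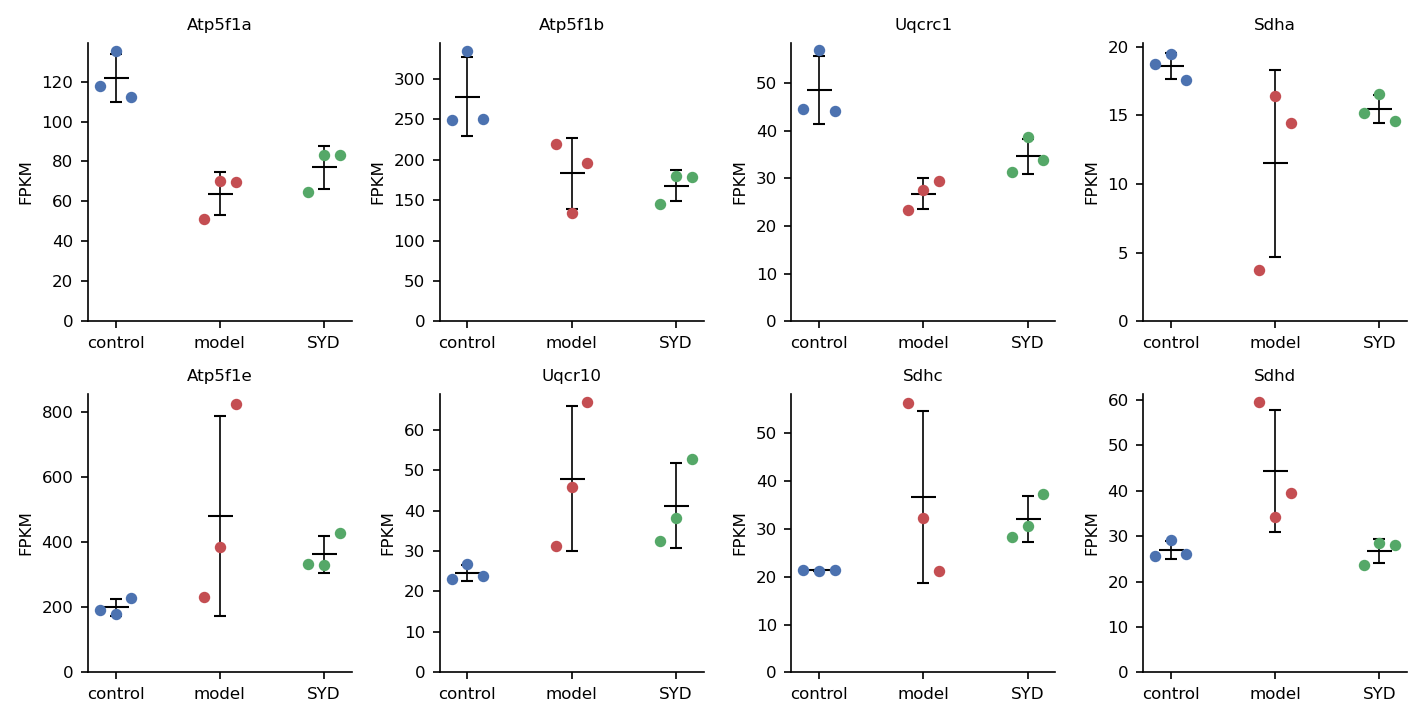
FPKM of 8 members in the 9 libraries, with the mean (bar) and SD (whisker, n = 3) of each group. Atp5f1a, Atp5f1b, Uqcrc1 and Sdha have their highest values in the control group, and Atp5f1e and Uqcr10 have their lowest there. Sdhd is higher in the model group only, and Sdhc of model library 3 (21.2 FPKM) lies close to the control values.

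In complex II, the flavoprotein Sdha, which holds the succinate site, was at 18.7, 19.4 and 17.6 FPKM in control, 3.74, 16.4 and 14.4 FPKM in model and 15.1, 16.6 and 14.6 FPKM in SYD. The model and SYD groups both lay below the control range, with log2 fold changes of -0.85 ± 0.52 (limma, adjusted p = 0.434) and -0.25 ± 0.12 (limma, adjusted p = 0.182). The lowest value, of model library 1, rested on 53 reads, where the control mean would have given 263.

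The other 3 subunits of complex II were not lower. The iron-sulfur subunit Sdhb was at 16.7, 17.0 and 15.5 FPKM in control, 48.1, 21.5 and 18.8 FPKM in model and 17.7, 20.2 and 24.3 FPKM in SYD, with no overlap with control in either comparison. The membrane anchor Sdhc was at 21.4, 21.2 and 21.3 FPKM in control, 56.4, 32.3 and 21.2 FPKM in model and 28.3, 30.6 and 37.4 FPKM in SYD. Sdhc was higher in SYD than in control libraries by 0.56 ± 0.14 on the log2 scale (limma, adjusted p = 0.0451), whereas model library 3 stayed at the control level. When 1 library was left out, that adjusted p stayed under 0.05 (limma) only without SYD library 3. The second anchor, Sdhd, was at 25.5, 29.1 and 26.0 FPKM in control, 59.6, 34.1 and 39.4 FPKM in model and 23.7, 28.5 and 28.1 FPKM in SYD. Sdhd of the model group stood clear of both other groups, by 0.67 ± 0.27 over control (limma, adjusted p = 0.250) and with -0.68 ± 0.29 for SYD against model (limma, adjusted p = 0.723). The ratio of Sdhb to Sdha was 0.874 to 0.894 in control, 1.30 to 12.9 in model and 1.17 to 1.67 in SYD. Model library 1, with the few Sdha reads, sets the upper end, and the other model libraries were at 1.31 and 1.30, within the SYD range.

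Complex I had no call in any comparison among its 37 tested members. The median log2 fold change was -0.04 for model against control, 0.02 for SYD against model and -0.04 for SYD against control. By mean over the 9 libraries, the 3 most abundant members were Ndufb8 (56.3 ± 7.11, 33.0 ± 12.03 and 47.4 ± 6.97 FPKM in control, model and SYD), Ndufb11 (37.1 ± 5.27, 62.2 ± 33.7 and 35.2 ± 8.56 FPKM) and Ndufa6 (29.9 ± 3.15, 40.4 ± 23.3 and 42.7 ± 9.79 FPKM), all accessory subunits. Ndufb8 was at 57.3, 62.8 and 48.7 FPKM in control and 20.54, 33.8 and 44.6 FPKM in model, without overlap, and its log2 fold change was -0.81 ± 0.32 (limma, adjusted p = 0.247).

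Of the core subunits of complex I, Ndufv1, which binds NADH, had 21.8 ± 3.15 FPKM in the control, 23.5 ± 9.66 in the model and 20.3 ± 4.43 in the SYD group. Ndufs1, the large iron-sulfur subunit, was at 14.5, 15.2 and 14.0 FPKM in control, 15.9, 10.2 and 7.78 FPKM in model and 7.88, 12.2 and 8.60 FPKM in SYD. The SYD libraries were all below control, by -0.58 ± 0.18 on the log2 scale (limma, adjusted p = 0.0794), and the model libraries overlapped both.

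Ndufaf4, an assembly factor of complex I (chromosome 5, 38605153 to 38610336), was called as raised in the model group. It was at 3.16, 3.67 and 3.502 FPKM in control, 11.99, 7.13 and 5.68 FPKM in model and 5.44, 3.24 and 2.82 FPKM in SYD. The model libraries were above all 6 others. The log2 fold change was 1.00 ± 0.35 for model against control (limma, adjusted p = 0.193) and -0.92 ± 0.42 for SYD against model (limma, adjusted p = 0.723). The former was no longer called without model library 1 or any 1 of the control libraries. Ndufaf3 and Ndufaf6, also assembly factors, had SYD values wholly below control, at 4.27 ± 0.973 against 7.02 ± 0.985 FPKM and 2.06 ± 0.633 against 3.85 ± 0.665 FPKM (limma, adjusted p = 0.0887 and 0.0885).

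In complex IV, the ubiquitous isoforms showed no call. Cox6a1 was at 126, 162 and 137 FPKM in control, 161, 112 and 132 FPKM in model and 101.04, 101.2 and 117 FPKM in SYD. The SYD libraries lay below all control libraries, by -0.40 ± 0.16 on the log2 scale (limma, adjusted p = 0.142). Cox4i1, the main regulatory isoform, had 55.6 ± 10.3, 83.7 ± 25.6 and 70.9 ± 18.4 FPKM in control, model and SYD, Cox6b1 (the 499 bp entry) had 89.2 ± 15.8, 79.4 ± 22.6 and 77.4 ± 13.5 FPKM, Cox7a2 had 93.8 ± 12.6, 67.4 ± 39.9 and 91.7 ± 34.2 FPKM, and Ndufa4 had 14.5 ± 0.413, 21.2 ± 5.33 and 12.98 ± 3.22 FPKM. Another entry, outside the name rule, matches the Cox7a2 protein. It was at 4.15, 6.06 and 6.20 FPKM in control, 41.9, 9.26 and 27.1 FPKM in model and 6.71, 13.3 and 8.57 FPKM in SYD. Reads can be shared out between such entries, so the level of Cox7a2 is uncertain. Cox6c was at 86.5, 114 and 100.6 FPKM in control and at 3.74, 139.8 and 118 FPKM in model. The single low value, in model library 1, came from 5 reads, where the control mean would have given 134.

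Cox6a2, the isoform of heart and skeletal muscle (chromosome 1, 182788528 to 182789274), was at 4.77, 1.37 and 0.694 FPKM in control, 18.5, 2.71 and 39.9 FPKM in model and 0.476, 19.8 and 14.1 FPKM in SYD. Model library 2 overlapped the control libraries, and the log2 fold change of 2.33 ± 0.96 was called at an unadjusted p of 0.0495 (limma, adjusted p = 0.260). The summed FPKM of 10 skeletal muscle markers was 366, 72.7 and 21.6 in control, 236, 39.8 and 1097 in model and 35.4, 1261 and 631 in SYD, and within each group the libraries stood in the same order by this sum as by Cox6a2. The call was lost without control library 2, control library 3, model library 1 or model library 3. Atp2a1, the calcium pump of fast muscle, was the 1 of 10 tested muscle markers called in that comparison (raised, beside 3.55% of all tested genes). Of the other cell type markers, 6 of 9 chondrocyte and 4 of 7 neutrophil markers were lowered (11.2% of all tested genes) and none of the erythroid, adipocyte or osteoblast markers was called. For SYD against control, 5 of 8 erythroid and 5 of 7 neutrophil markers were lowered (9.22% of all tested genes). Fabp4, 1 of 4 tested adipocyte markers, and Bglap, 1 of 6 osteoblast markers, were raised (7.25% of all tested genes), and no chondrocyte or muscle marker was called. For SYD against model, Elane, 1 of 7 tested neutrophil markers, was raised (3.62% of all tested genes) and no other marker was called. The part of muscle RNA in the Cox6a2 result, and of the other cell types in any member's result, was not tested. Cox7a1, the other muscle isoform, had a mean of only 0.0989 FPKM and was not tested.

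The isoforms known to respond to low oxygen, Cox4i2 and Ndufa4l2, varied widely within groups. Cox4i2 was at 21.7, 1.49 and 12.7 FPKM in control, 8.41, 20.47 and 3.65 FPKM in model and 21.3, 13.6 and 11.7 FPKM in SYD. Ndufa4l2, which takes the place of Ndufa4, was at 44.7, 1.56 and 30.2 FPKM in control, 30.9, 42.8 and 13.7 FPKM in model and 19.6, 33.2 and 14.8 FPKM in SYD. Both were lowest in control library 2, where the 9 chondrocyte markers summed to 424 FPKM against 10438 and 5443 in the other control libraries. In the model group, both were highest in library 2, where the same sum was lowest (135 FPKM, against 747 and 147). Col2a1 alone was at 606, 39.0 and 56.1 FPKM in model libraries 1, 2 and 3. Comp, Col9a1 and Cnmd were also lowest in library 2, whereas Acan, Hapln1 and Sox9 were lowest in library 3. Col11a1 (37.2 FPKM, against 14.9 in both others) and Matn3 were highest in library 2. Neither Cox4i2 nor Ndufa4l2 was called (limma, adjusted p = 0.970 and 0.722 for model against control).

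**Figure D4:**
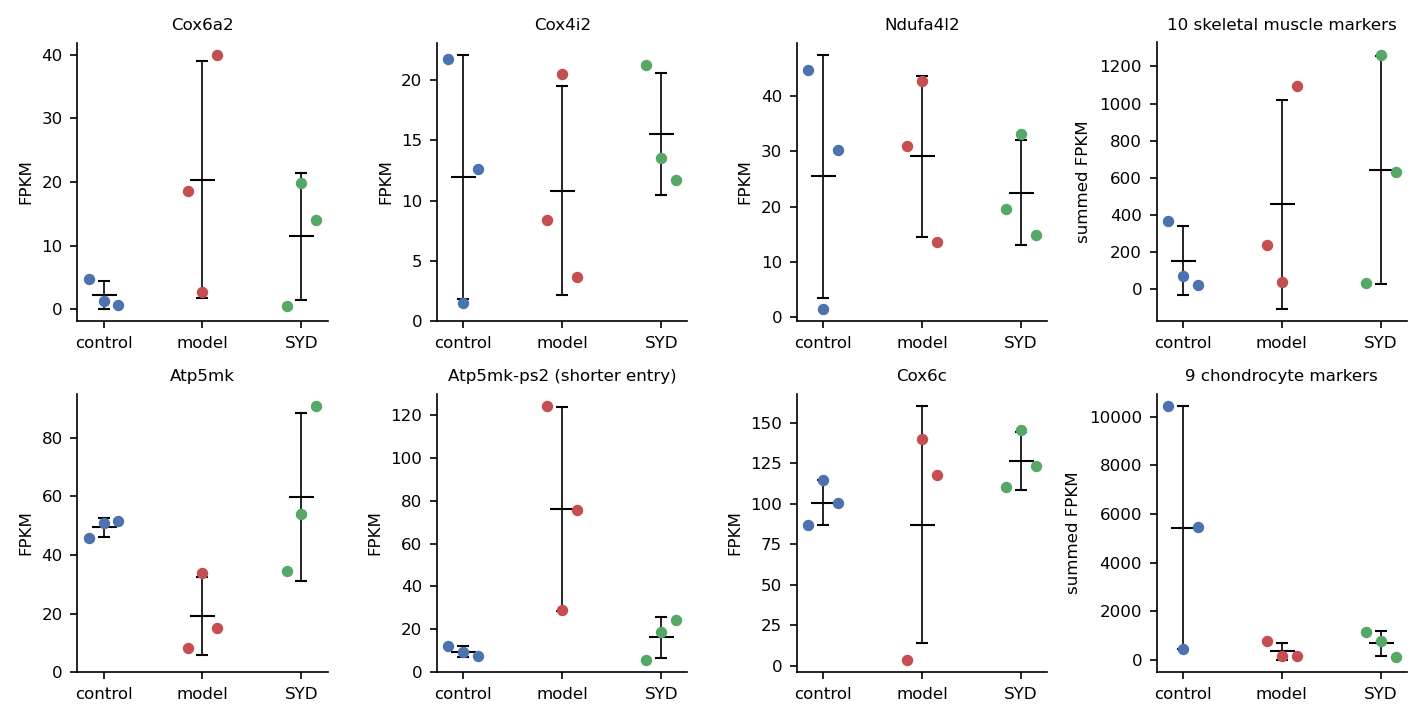
FPKM of Cox6a2, Cox4i2, Ndufa4l2, Atp5mk, its 177 bp copy and Cox6c, with the summed FPKM of the skeletal muscle and the chondrocyte markers, in the 9 libraries with the mean (bar) and SD (whisker, n = 3). Cox6a2 is above 10 FPKM in 4 model or SYD libraries and below 5 in the others, Atp5mk is lowest and its copy highest in the model group, and Cox6c is at 3.74 FPKM in model library 1 alone.

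The second comparison set SYD treatment beside the untreated model. Between the SYD and model groups, 2 of the 88 members were called (2.27%), beside 4.15% of all tested genes. These were Atp5mk (raised, beside 3.62%) and its 177 bp copy Atp5mk-ps2 (lowered, beside 0.532%), described above. All adjusted p-values of members were 0.723 or higher (limma), and no gene of the table passed 0.05. At an unadjusted p under 0.05 there were also 2 members, beside 5.26% of all tested genes, and voom called 1. The median log2 fold change was -0.15 over the members and 0.22 over all tested genes, and under TPM it was 1.32 and 1.22. Groups did not overlap for 7 members that were higher and 3 that were lower with SYD (11.1% of all tested genes, with 7.89% higher and 3.17% lower), among them Uqcrc1 (higher) and Sdhd and Ndufaf4 (lower). The count was 5 without model library 2, 2 without model library 1 (then Ndufb6 and Ndufaf2), and 1 without model library 3 or any 1 of the SYD libraries. The model libraries served in both this and the previous comparison, so opposite signs of a member in both are not independent.

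The third comparison set the SYD-treated model beside sham surgery. Between the SYD and control groups, 1 of the 88 members was called (1.14%), Atp5mpl-ps1, beside 16.5% of all tested genes and 7.25% that were raised. Without regard to fold size, Atp5f1e (0.86), Sdhc (0.56) and Atp5f1a (-0.66 on the log2 scale) had an adjusted p under 0.05 (limma), which is 3 of 88, beside 17.3% of all tested genes (7.75% raised and 9.57% lowered). Without SYD library 3, 5 members passed, among them these 3. Only Atp5mpl-ps1 passed without SYD library 1 and only Ndufs1 without SYD library 2, and 0 passed without any 1 of the control libraries. At an unadjusted p under 0.05 there were 9 higher and 10 lower members, beside 34.5% of all tested genes (16.5% raised and 18% lowered). Groups did not overlap for 13 higher and 15 lower members, beside 42.5% (20.3% higher and 22.2% lower). The fold changes were narrow, with only 2 of 88 members beyond 1 log2 unit (2.27%), beside 19.6% of all tested genes, and the median was 0.04. Where the mean reached 10 FPKM, 1 of 66 members was called, beside 22.5%. The count was 3 without SYD library 1 and 0 without control library 1, control library 3 or SYD library 2. Under TPM it was 49, all lower in the SYD group.

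The 11 tested members of a hand-written list of catalytic or core subunits had no call in any comparison. For SYD against control, 9 of the 11 had negative and 2 positive fold changes, from -0.72 (Atp5f1b) to 0.56 (Sdhc). This tally depends on the list, which leaves out further core subunits of complex I: Ndufv2 (0.43), Ndufs7 (0.31) and Ndufs8 (0.13) had positive values and Ndufs3 (-0.17) a negative one. Groups did not overlap for 6 of them below control (Atp5f1a, Atp5f1b, Ndufs1, Uqcrc1, Uqcrc2 and Sdha), beside 22.2% of all tested genes, and for 2 above (Sdhb and Sdhc), beside 20.3%. For model against control, 5 were negative and 6 positive, with 4 below the control range without overlap (Atp5f1a, Atp5f1b, Uqcrc1 and Sdha), beside 20% of all tested genes, and 2 above (Sdhb and Sdhd), beside 8.65%. This list was written with results of these data known and carries no test of its own. Gene length also ran with the direction of members: without the pseudogene-named copies, 21 of 33 members under 1000 bp and 25 of 49 longer ones had a positive fold change for model against control, with medians of 0.20 and 0.04. Over all tested genes these medians were 0 and -0.25, and the part of length in the member values was not tested.

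The spread of members was set beside that of all tested genes. Against the mean of the control libraries, 30 of 88 members (34.1%) of model library 1 were more than 1 log2 unit away, beside 42.5% of all tested genes. The shares were 10.2% beside 27.2% in model library 2 and 29.5% beside 43.5% in model library 3. In SYD libraries 1, 2 and 3 they were 2.27%, 4.55% and 11.4%, beside 23.2%, 21.9% and 28.2%. The members are more abundant than most genes, and the part of abundance in these shares was not tested.

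**Figure D5:**
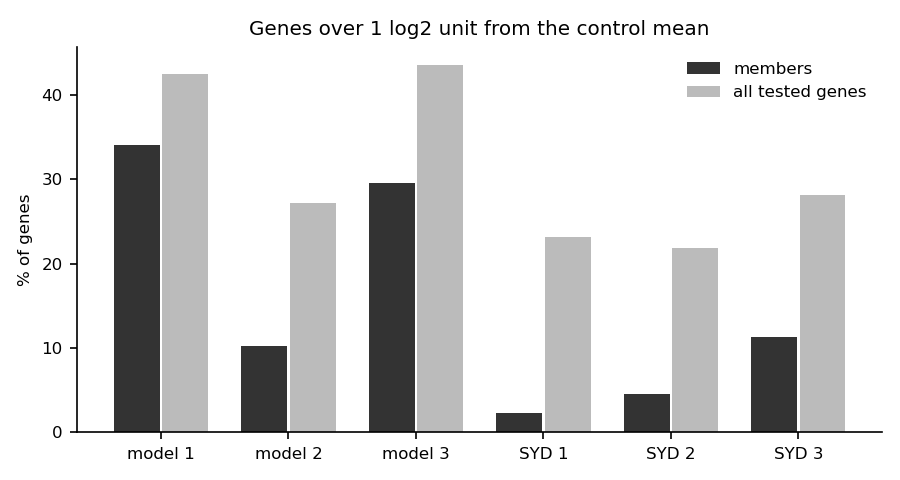
Bars give the percentage of the 88 tested members (dark) and of all 13898 tested genes (light) whose log2(FPKM + 1) in a model or SYD library lay more than 1 from the mean of the 3 control libraries. The dark bar is the shorter one in all 6 libraries, from 2.27% in SYD library 1 to 34.1% in model library 1.

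Few reads limited model libraries 1 and 3. The median member had 89.5 reads in model library 1 and 238 in model library 3, against 740 to 1033 in control. Of the tested members, 6 were at 0 in model library 1 (6.82%, beside 34.8% of all tested genes) and 5 in model library 3 (5.68%, beside 25.6%). Members named here were chosen after their values were seen. Ndufs8, an iron-sulfur subunit of complex I, was at 0 in model library 1 and between 9.22 and 16.6 FPKM in the 8 others, where its control mean would have given 70.7 reads and a floor of 3 reads equals 0.466 FPKM. Ndufa1 was at 0 in the same library, where its control mean would have given 48.3 reads, but the authors' table matches this entry to the protein of another gene, RNF113A, so its level is uncertain. Intervals and floors of this kind cover counting error only.

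Other genes of oxidative metabolism were taken from lists written by hand. Of 45 tested assembly factors and electron carriers, 0 were raised and 2 lowered in the model group (Coq2 and Coq3, enzymes of ubiquinone synthesis), beside 3.55% and 11.2% of all tested genes. Of 19 enzymes of the citrate cycle and its supply, 2 were lowered (Ogdh and Pc). Of 18 regulators of mitochondrial biogenesis, 4 were lowered: Tfam, which packs mitochondrial DNA and helps to start its transcription, Nrf1, Gabpb1 and Polg2. None of these 8 calls had an adjusted p under 0.05 (limma), and in SYD against model none of the 3 lists had a call. Tfam was at 8.95, 12.8 and 11.4 FPKM in control, 0, 5.88 and 3.21 FPKM in model and 6.78, 6.69 and 4.81 FPKM in SYD, all model and SYD libraries being lower. For SYD against control, Coq3 was the 1 gene of the 3 lists that was called (lowered, beside 9.22% of all tested genes). By an adjusted p under 0.05 alone (limma), Uqcc2 (0.87), Coq8a (0.99) and Coq10a (0.76) were higher, and Ogdh (-0.79), Pc (-0.95), Yy1 (-0.94) and Tfam (-0.76 on the log2 scale) were lower. These are 3 of 45 assembly factors and carriers, 2 of 19 citrate cycle genes and 2 of 18 regulators. Of all tested genes, 17.3% passed (7.75% raised and 9.57% lowered). The median log2 fold change for model against control was -0.13 over the assembly factors and carriers, -0.24 over the citrate cycle and -0.52 over the regulators, beside 0.08 over the members. Of the listed genes in the table, tested or not, 10 of 20 regulators and 22 of 49 assembly factors and carriers were at 0 in model library 1, and 7 and 13 in model library 3, while no citrate cycle gene was at 0 in any library. The counts of 22 and 13 include Coa3, Surf1 and a second Sdhaf1 entry, which were at 0 in all 9 libraries. Of all tested genes, 34.8% were at 0 in model library 1 and 25.6% in model library 3. The part of these zeros in the medians was not tested.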

How the data were processed

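Gene values of 9 RNA-seq libraries (3 control, 3 model, 3 SYD) were analysed. The deposited values are FPKM, computed by the authors from aligned reads; the submitters' processing notes name HISAT2 2.0.5 and, for these rat samples, the human build hg38. The counting tool and annotation were not given in the sources used here, and the table's coordinates carry no build name. The FPKM values are whole multiples of 1 read per gene (100% within a tolerance of 0.1), which gave reads per gene and library.

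Groups came from the labels. log2(FPKM + 1) was compared between 2 groups at a time with limma 3.58.1 (R 4.3.3; lmFit and eBayes with trend, two-sided), on the 13898 genes with a mean of at least 0.5 FPKM, with Benjamini-Hochberg adjustment over all of them. Genes were called at an unadjusted p under 0.05 when the groups also differed by more than 1 log2 unit. Named were the 3 members of highest mean FPKM in each complex, at most 10 called members per comparison, isoform pairs and the core subunits; other members named were chosen after their values were seen. The members and lists were chosen with earlier results of these data known. On simulated data of 13898 genes for model against control, 82.5% of 200 genes changed by 2 log2 units were called and 0.241% of the others. The simulation let all libraries vary by the same fixed amount. The real model libraries correlated at 0.644 to 0.706 over all tested genes and the control libraries at 0.931 to 0.977. These rates therefore hold for the simulation only. Alternatives were a pseudocount of 0.1, another filter, TPM, rescaling without mitochondrial genes, voom on the recovered reads, 1 fit of all libraries, a replicate block and leaving out libraries. Promoter windows were RefSeq's (GRCr8). Python 3.11.15 with pandas 2.3.3 was used. 1 listed item is not reported here.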

Additional observations from a re-analysis of the deposited data

How the results depend on the processing

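The 5 members called for model against control became 75 under TPM, 3 among genes with a mean of at least 10 FPKM, 3 without the pseudogene-named copies, 12 at an unadjusted p under 0.05 alone, 0 by adjusted p, and 1 to 11 with 1 library left out. The 2 called for SYD against model became 1 with voom, 1 without the copies, 0 by adjusted p, and 1 to 5 with 1 library left out. The 1 called for SYD against control became 49 under TPM, 0 after rescaling without mitochondrial genes, 0 in a single fit of all 9 libraries, 0 without the copies, 19 at an unadjusted p under 0.05 alone, 3 by adjusted p, and 0 to 3 with 1 library left out. The median fold changes of the members were -2.85, 1.32 and -1.46 on the log2 scale under TPM, and -0.05 to 0.25, -0.22 to 0.04 and -0.04 to 0.15 with 1 library left out. Under TPM, model against control turned to -0.41 for Atp5mk-ps2, -1.72 for Ndufaf4, -1.25 for Atp5mpl-ps1 and -0.26 for Cox6a2, and SYD against control to -0.44 for Atp5mpl-ps1. The cause of these changes was not tested beyond what each setting itself does. The limit of 10 FPKM, the removal of the copies and the removal of model libraries 1 and 3 were chosen after seeing the data. With the replicate block the counts were 4, 2 and 1. Libraries of the same number did not deviate together (r from -0.267 to 0.194 over the 3 comparisons), so the numbers do not pair the samples. Depth limits model libraries 1 and 3 most, since few of their reads fell outside the mitochondrial genome.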

Other observations

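Some entries outside the name rule match proteins of the same complexes. An unnamed entry matching COX8A was at 64.8, 86.1 and 69.6 FPKM in the control libraries, 58.2, 83.5 and 89.1 FPKM in the model libraries and 78.7, 89.0 and 111 FPKM in the SYD libraries, with overlap. An unnamed entry matching COX8B, the isoform of heart and skeletal muscle, was at 4.20, 0.429 and 0.160 FPKM, 22.6, 0 and 75.9 FPKM, and 0, 9.78 and 21.6 FPKM in the same order, and within each group its libraries stood in the order of the skeletal muscle markers except in the SYD group. Cyc1, cytochrome c1 of complex III, was at 43.8, 62.7 and 50.9 FPKM in the control libraries, 21.4, 37.7 and 29.9 FPKM in the model libraries and 37.8, 40.5 and 39.9 FPKM in the SYD libraries. The control libraries were the highest, and the log2 fold change of model against control was -0.82 (limma, adjusted p = 0.190).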
